A study of Mus musculus with 9 samples.

Results

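The Slc25 family comprises the mitochondrial carriers, proteins that move nucleotides, phosphate, organic acids, amino acids, cofactors and iron-related substrates across membranes, in nearly all cases the inner membrane of mitochondria. Its members were taken as all genes whose Entrez identifier carries a mouse symbol of the form Slc25a followed by a number. They numbered 47 of the 27179 genes in the count table, and 36 of the 47 had enough counts to be tested. RNA was sequenced in 9 libraries of HPC7, a mouse line of blood progenitors kept in stem cell factor. The cells carried the retroviral vector MSCV-IRES-GFP, which marks them with green fluorescent protein, and GFP-positive cells were sorted 1 week after transduction. In 3 libraries the vector held wild-type Snai1, in 3 it held mutant Snai1 in which alanine replaces phenylalanine at residue 5, and in 3 it held no gene (empty vector). Snai1 is a zinc finger repressor whose SNAG domain recruits the histone demethylase Lsd1, and the labels state that the mutation impairs that contact. All 3 groups share the cell line, the vector backbone, the marker and the sort, and wild-type and mutant Snai1 were both present far above the level of empty vector cells.

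Carriers are built from similar repeats and enter the inner membrane through dedicated import complexes. Some exchange ADP for ATP, some bring in phosphate for ATP synthesis, and others link the cytosol with the citric acid cycle, amino acid breakdown, heme synthesis and the cofactor supply of the matrix. In blood cells the mitoferrins and the glycine carrier are known from red cell heme synthesis. Carriers of ATP-Mg in exchange for phosphate, most of which have a calcium-binding part, set the size of the adenine nucleotide pool of the matrix.

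The libraries held 18332451 to 20860314 counts each. Levels are given as CPM, counts scaled to the library total after its adjustment by TMM (described under processing). On that scale 3 counts, used here as a floor, corresponded to 0.144 to 0.161 CPM. Snai1 stood at 425 to 562 CPM with wild-type Snai1, 415 to 493 CPM with the mutant and 0.697 to 1.06 CPM with empty vector. In empty vector replicate 1 a gene without a symbol took 3.62% of all counts. The summed level of 8 blood progenitor markers was 7832 to 9508 CPM in wild-type libraries, 7491 to 7721 CPM with the mutant and 7529 to 7735 CPM with empty vector. Within that list Lmo2 and Cd34 rose with the wild type against empty vector, Tal1 and Lyl1 fell, and 4 were not called. The summed level of 7 monocyte and macrophage markers was 603 to 908 CPM with wild-type Snai1, 81.7 to 97.2 CPM with the mutant and 89.2 to 108 CPM with empty vector, and 6 of these 7 rose and Itgam fell with the wild type. Of 5 erythroid markers in the table, the alpha globin gene Hba-a1 had 0 counts throughout, and the sum was 13.4 to 16.6, 33.9 to 38.5 and 30.4 to 32.7 CPM in the same group order. For fibroblast markers 3 of 6 had 0 counts and the sum was at most 0.1002 CPM. The part that these shifts in cell state have in the carrier values was not tested, and in such bulk RNA fewer cells of a type and less RNA per cell cannot be told apart.

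Together the 47 carriers made up 0.221% to 0.242% of all counts in each library. Their summed level was 2289 to 2383 CPM with wild-type Snai1, 2292 to 2366 CPM with the mutant and 2281 to 2304 CPM with empty vector, so that on this scale the wild-type range overlapped each of the others. Levels between genes are compared as RPKM, which is CPM divided by the gene length in kilobases given in the table. Summed over the 47 members, the level per length was 1290, 1241 and 1250 RPKM with wild-type Snai1, 1244, 1190 and 1201 RPKM with the mutant and 1174, 1174 and 1165 RPKM with empty vector. On that scale the wild-type and the mutant libraries lay wholly above those of empty vector and overlapped each other. In empty vector the highest carriers were Slc25a5, which encodes the ADP/ATP carrier of proliferating cells, at 203 ± 3.76 RPKM, and the phosphate carrier gene Slc25a3 at 148 ± 6.47 RPKM (SD, n = 3). They were followed by the ADP/ATP carrier gene of heart and muscle, Slc25a4, at 137 ± 5.60 RPKM, by the glutathione carrier gene Slc25a39 at 91.3 ± 2.56 RPKM and by the citrate carrier gene Slc25a1 at 85.7 ± 3.41 RPKM. In this order Slc25a3 and Slc25a4 differed by less than the sum of their SDs, and so did Slc25a39 and Slc25a1. Sixth was Slc25a23, an ATP-Mg/phosphate carrier gene, at 58.6 ± 3.76 RPKM. At the other end, Slc25a35 was at 0.658 ± 0.234 RPKM and was the lowest of the tested members.

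**Figure D1:**
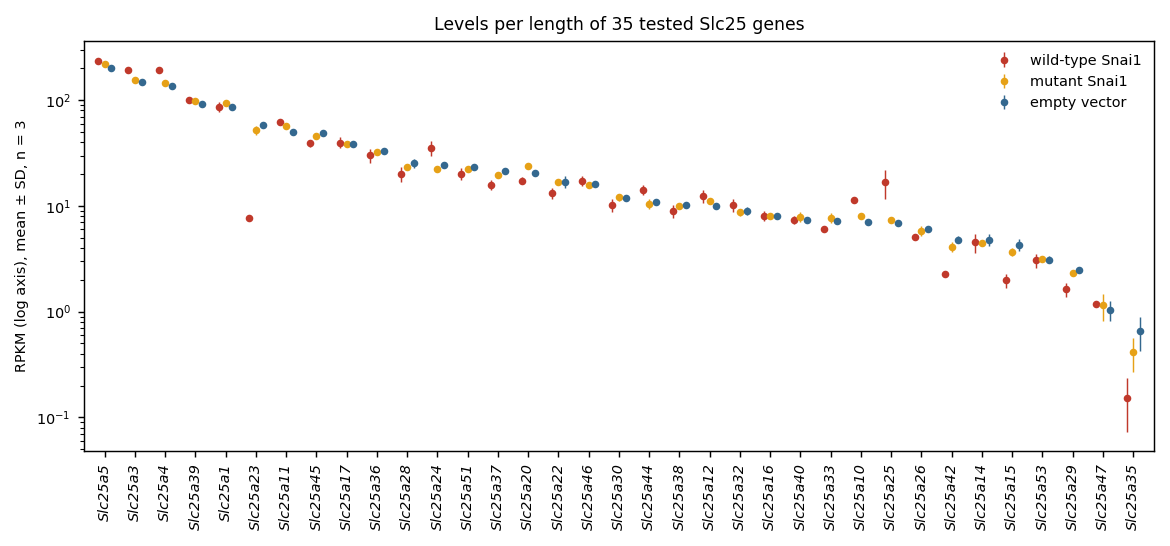
Mean RPKM of 35 of the tested Slc25 genes on a log axis, ordered by the empty vector mean, with 1 SD of 3 libraries per group. Slc25a5, Slc25a3 and Slc25a4 were highest in empty vector and in both Snai1 groups, and Slc25a23 with wild-type Snai1 lay at 7.68 RPKM against 58.6 RPKM in empty vector.

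The remaining 11 members had too few counts. Slc25a13, Slc25a21, Slc25a27, Slc25a31, Slc25a43, Slc25a48 and Slc25a54 had 0 counts in all 9 libraries, as did 34.3% of all rows of the table. Slc25a13 encodes citrin, the relative of the aspartate/glutamate carrier encoded by Slc25a12, and Slc25a31 a testis form of the ADP/ATP carrier. Slc25a41 had 4 counts in all, Slc25a2 had 25, Slc25a18 had 41 and Slc25a34 had 46. At this depth a level under the floor could not be told from absence. Whether an exact 0 in all libraries reflects the level of the RNA or the annotation and read assignment used for counting cannot be told from the table, so it is given as listed at 0.

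With wild-type Snai1 against empty vector, carriers changed in both directions. Of the 36 tested members 10 rose and 11 fell by edgeR's quasi-likelihood test at an adjusted p under 0.05, 27.8% and 30.6% of them, or 58.3% together. Of all 12484 tested genes 25.2% rose and 24.3% fell, 49.4% together, so the members' shares lie near the background. The wild-type libraries lay wholly above the controls for 10 members and wholly below for 13, beside 28.1% and 28.5% of all genes. A change of at least 1.5-fold was called for 2 members upward and 6 downward, 5.56% and 16.7%, against 11.2% and 11.3% of all genes. The median log2 fold change was -0.05 over the members and 0.00 over all genes, and the median size without sign was 0.28 and 0.29. The fold changes ran from -2.93 for Slc25a23 to 1.28 for Slc25a25, which belong to the same subfamily.

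With mutant Snai1 against empty vector, 0 of 36 members were called by edgeR and 0 by DESeq2. At an unadjusted p under 0.05 there were 3 members, Slc25a10, Slc25a11 and Slc25a20, or 8.33%, beside 4.83% of all genes at that threshold. Their log2 fold changes were 0.17 to 0.22 and their adjusted p-values 0.980. Over all genes 0.00801% were called, a count of 1. The members' fold changes ran from -0.65 for the low gene Slc25a35 to 0.22 for Slc25a20, with a median of -0.01 against 0.00 for all genes. The mutant libraries lay wholly above the controls for 6 members and wholly below for 4, or 16.7% and 11.1%, where all genes gave 8.53% and 9.04%.

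With wild-type against mutant Snai1, which tests the difference between both Snai1 forms directly, 6 members were higher and 11 lower with the wild type, 16.7% and 30.6%, beside 24.5% and 23.4% of all genes, or 47.2% of members and 47.9% of genes called in either direction. Wild-type libraries lay wholly above the mutant ones for 7 members and wholly below for 13, beside 27.5% and 28.3% of all genes. Called higher were Slc25a3, Slc25a4, Slc25a10, Slc25a24, Slc25a25 and Slc25a44. Called lower were, among others, Slc25a15, Slc25a20, Slc25a22, Slc25a23, Slc25a29, Slc25a33, Slc25a35, Slc25a37, Slc25a42 and Slc25a45. The comparisons of either Snai1 group with empty vector share the 3 control libraries, so their values are given side by side only.

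**Figure D2:**
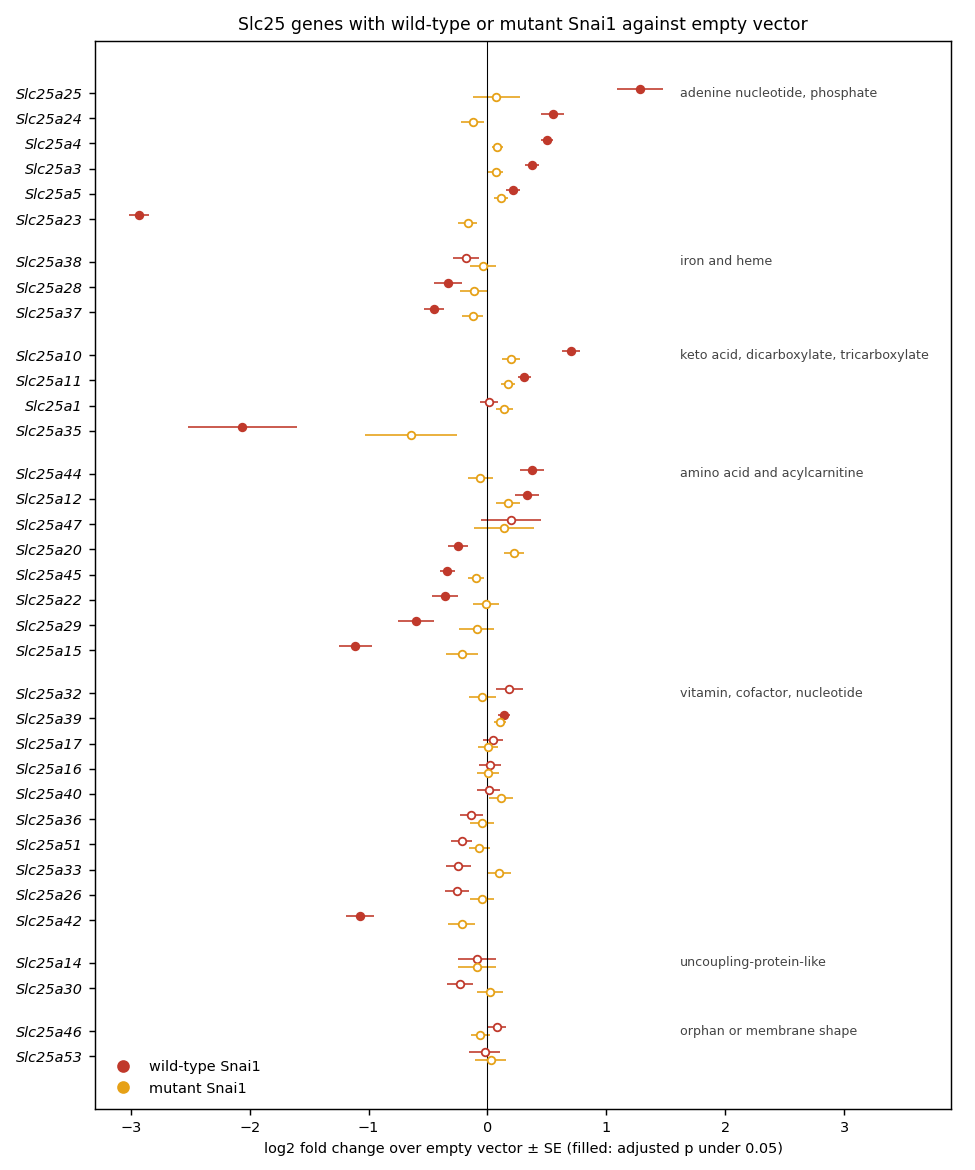
Log2 fold changes over empty vector with their standard errors for 35 of the tested Slc25 genes, for wild-type Snai1 and mutant Snai1, grouped by what the carriers transport; filled points passed an adjusted p of 0.05. Wild-type points spread from -2.93 (Slc25a23) to 1.28 (Slc25a25) with 20 filled, and all mutant points are open.

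The carriers of ATP-Mg in exchange for phosphate showed the widest differences within the family. Slc25a23 (gene 66972, chromosome 17, 57043711 to 57059909 on GRCm38, minus strand) was at 27.3, 25.0 and 25.3 CPM in the wild-type libraries, at 173, 194 and 160 CPM in the mutant libraries, and at 188, 191 and 211 CPM with empty vector. All wild-type libraries lay far below the other 6, while the mutant and control ranges overlapped. For wild type over empty vector the log2 fold change was -2.93 (adjusted p 7.01e-09, SE 0.09), a 7.62-fold lower level. Wild type over mutant gave -2.76 (adjusted p 1.32e-08, SE 0.09), and mutant over empty vector -0.17 (adjusted p 0.980, SE 0.08). An antisense gene, Gm17168, has an exon overlap of up to 142 bases with it. Since the strand setting of the counting is not given in the sources used here, reads of such pairs cannot be told apart.

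Slc25a25 (gene 227731, chromosome 2, 32414487 to 32451470, minus strand) went the other way. It stood at 43.4, 77.2 and 80.1 CPM with wild-type Snai1, 28.3, 28.2 and 30.3 CPM with the mutant, and 26.3, 27.3 and 28.9 CPM with empty vector. Every wild-type library was above every other library, and wild-type replicate 1 was the lowest of its group. The log2 fold change was 1.28 (adjusted p 5.37e-04, SE 0.20) for wild type over empty vector, 1.21 (adjusted p 7.86e-04, SE 0.20) over mutant, and 0.08 (adjusted p 0.999, SE 0.20) for mutant over empty vector. Without wild-type replicate 1 the value over empty vector was 1.52. Naif1, which shares up to 379 bases with it on the opposite strand, was at 3.47 ± 0.381 CPM in wild-type libraries and 3.71 ± 0.501 CPM with empty vector (SD, n = 3), with an adjusted p of 0.692.

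Slc25a24 (gene 229731, chromosome 3, 109123149 to 109168409, plus strand), the remaining tested carrier of this kind, had 142, 107 and 110 CPM in wild-type libraries, 73.6, 77.0 and 74.8 CPM in mutant libraries and 84.6, 78.1 and 83.0 CPM with empty vector. The wild-type libraries were again above all others, replicate 1 was the highest of them, and the mutant libraries lay just under the controls. Wild type over empty vector gave a log2 fold change of 0.55 (adjusted p 9.64e-04, SE 0.10) and wild type over mutant 0.67 (adjusted p 2.79e-04, SE 0.10). Mutant over empty vector was -0.12 (adjusted p 0.998, SE 0.10). Without wild-type replicate 1 the value over empty vector was 0.41.

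Per length, the make-up of this class differed between groups. Slc25a23 accounted for 13.3%, 12.6% and 12.5% of the summed RPKM of the 3 genes in wild-type libraries, for 64.0%, 65.9% and 61.5% in mutant libraries and for 63.9%, 65.5% and 66.4% with empty vector. Slc25a24 held 59.0% ± 8.50, 27.2% ± 1.33 and 27.0% ± 1.36 in the same order, and Slc25a25 held 28.2% ± 8.92, 8.97% ± 0.893 and 7.72% ± 0.186 (SD, n = 3). The leading gene of the class was thus Slc25a24 in wild-type libraries, and Slc25a23 in mutant and in control libraries. The summed level was 60.0 ± 1.23 RPKM with wild-type Snai1, 81.7 ± 5.35 RPKM with the mutant and 89.7 ± 4.36 RPKM with empty vector, so the rises of Slc25a24 and Slc25a25 were smaller in RPKM than the fall of Slc25a23. These shares were computed after the values of the genes were seen, and 3 libraries against 3 cannot give an exact permutation p below 0.1.

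**Figure D3:**
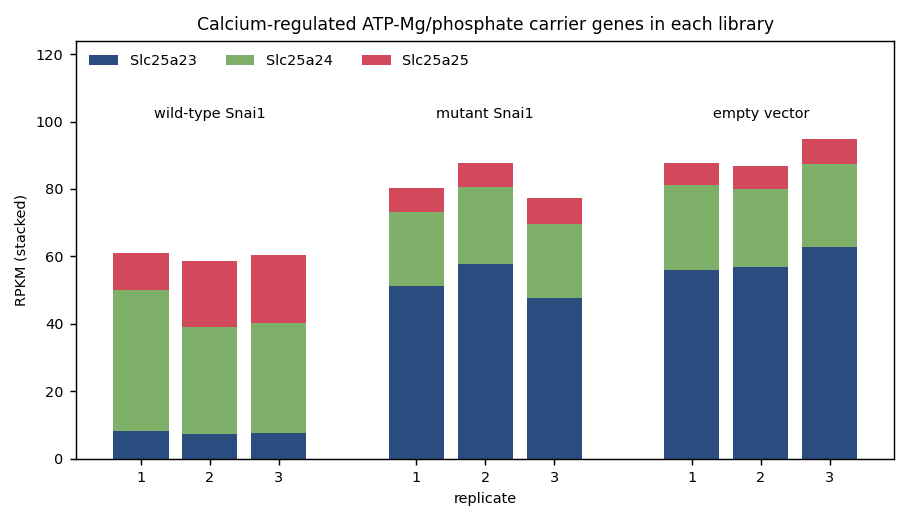
Stacked RPKM of Slc25a23, Slc25a24 and Slc25a25 in each of the 9 libraries. Slc25a23 made up 12.5% to 13.3% of each wild-type bar and 61.5% to 66.4% of the mutant and empty vector bars, and the summed bars averaged 60.0 RPKM with wild-type Snai1, 81.7 RPKM with the mutant and 89.7 RPKM with empty vector.

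Snai1 binds the E-box sequence CAGGTG, so the promoter windows of these genes are shown, each running from 250 bases before to 50 bases after an annotated start and read along the gene (RefSeq, GRCm38.p6). The letters CAGGTG or CACCTG, its other strand, are in capitals where present. Slc25a20, a carrier with a match, is printed for comparison. Slc25a23 has 2 listed starts and Slc25a25 has 3, of which the downstream one is shown for Slc25a23 and the most upstream one for Slc25a25.
Slc25a23, chr17:57059793-57060092, minus strand: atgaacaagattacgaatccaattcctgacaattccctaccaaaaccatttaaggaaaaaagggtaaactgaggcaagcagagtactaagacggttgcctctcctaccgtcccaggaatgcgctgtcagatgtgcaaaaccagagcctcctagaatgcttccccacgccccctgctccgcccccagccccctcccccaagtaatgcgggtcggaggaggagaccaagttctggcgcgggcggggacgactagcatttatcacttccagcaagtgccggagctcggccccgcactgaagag
Slc25a24, chr3:109122899-109123198, plus strand: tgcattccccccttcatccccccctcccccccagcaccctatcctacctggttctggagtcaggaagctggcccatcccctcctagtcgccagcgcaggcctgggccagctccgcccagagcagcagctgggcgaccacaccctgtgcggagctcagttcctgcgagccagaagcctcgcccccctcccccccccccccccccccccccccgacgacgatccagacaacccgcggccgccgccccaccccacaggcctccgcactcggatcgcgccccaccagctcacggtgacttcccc
Slc25a25, chr2:32451421-32451720, minus strand: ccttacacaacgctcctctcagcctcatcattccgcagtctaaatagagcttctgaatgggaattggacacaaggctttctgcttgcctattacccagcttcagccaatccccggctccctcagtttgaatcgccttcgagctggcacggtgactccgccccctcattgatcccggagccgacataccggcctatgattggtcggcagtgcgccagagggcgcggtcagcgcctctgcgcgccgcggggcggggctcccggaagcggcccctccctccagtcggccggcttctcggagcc
Slc25a20, chr9:108661886-108662185, plus strand: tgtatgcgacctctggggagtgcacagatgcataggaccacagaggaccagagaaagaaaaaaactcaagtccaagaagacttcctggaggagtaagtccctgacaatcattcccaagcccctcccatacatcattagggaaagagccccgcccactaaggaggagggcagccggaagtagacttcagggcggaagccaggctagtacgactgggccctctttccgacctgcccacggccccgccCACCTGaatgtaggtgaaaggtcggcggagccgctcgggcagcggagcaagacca
Neither the printed windows of Slc25a23, Slc25a24 and Slc25a25 nor the other windows of these genes held the motif, while that of Slc25a20 held it from 5 bases before the start. Windows were at hand for 36 of the 47 members. Of their 46 windows 9, or 19.6%, held the motif, beside 20.2% of the 32851 windows used. Members with the motif were Slc25a5, Slc25a18, Slc25a20, Slc25a33, Slc25a34, Slc25a38, Slc25a40, Slc25a48 and Slc25a54. Of these Slc25a18, Slc25a34, Slc25a48 and Slc25a54 were not tested. Against empty vector Slc25a5 rose and Slc25a20 fell with wild-type Snai1, where 49.4% of all genes were called. Slc25a33, Slc25a38 and Slc25a40 were not called there. Against the mutant Slc25a20 and Slc25a33 were called lower, where 47.9% of all genes were called. A match in these letters describes the window only.

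Of 6 tested carriers of adenine nucleotides and phosphate 5 rose and 1 fell with wild-type Snai1, where 25.2% of all genes rose and 24.3% fell. Among those that rose were the ADP/ATP and phosphate carrier genes Slc25a4, Slc25a3 and Slc25a5. Slc25a4 (gene 11739, chromosome 8, 46207168 to 46211062) had 221, 213 and 212 CPM in wild-type libraries, 165, 158 and 160 CPM with the mutant and 156, 156 and 145 CPM with empty vector. No group overlapped another. Wild type over empty vector was 0.50 (adjusted p 2.03e-05, SE 0.05) and over mutant 0.42 (adjusted p 7.64e-05, SE 0.05) on the log2 scale, while mutant over empty vector was 0.08 (adjusted p 0.992, SE 0.05).

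Slc25a3 (gene 18674, chromosome 10, 91116574 to 91124046) had 303, 275 and 290 CPM with wild-type Snai1, 249, 220 and 233 CPM with the mutant and 232, 225 and 213 CPM with empty vector. The wild-type libraries lay above all others, by 0.37 (adjusted p 6.76e-04, SE 0.06) over empty vector and 0.31 (adjusted p 0.00246, SE 0.06) over mutant. Slc25a5 (gene 11740, chromosome X, 36795597 to 36798808) had 299.9, 279 and 294 CPM, 284, 254 and 275 CPM, and 255, 252 and 246 CPM in the same group order. It rose by 0.21 (adjusted p 0.00910, SE 0.06) over empty vector. Its wild-type and mutant libraries overlapped, with a difference of 0.10 (adjusted p 0.161, SE 0.06).

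Since Slc25a4 rose more than its relative, its share of the summed RPKM of both ADP/ATP carriers was 45.3% ± 0.657 with wild-type Snai1, 40.0% ± 0.950 with the mutant and 40.4% ± 0.576 with empty vector (SD, n = 3). The genes of this family are alike in sequence, and how the authors treated reads that match several of them is not given in the sources used here.

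**Figure D4:**
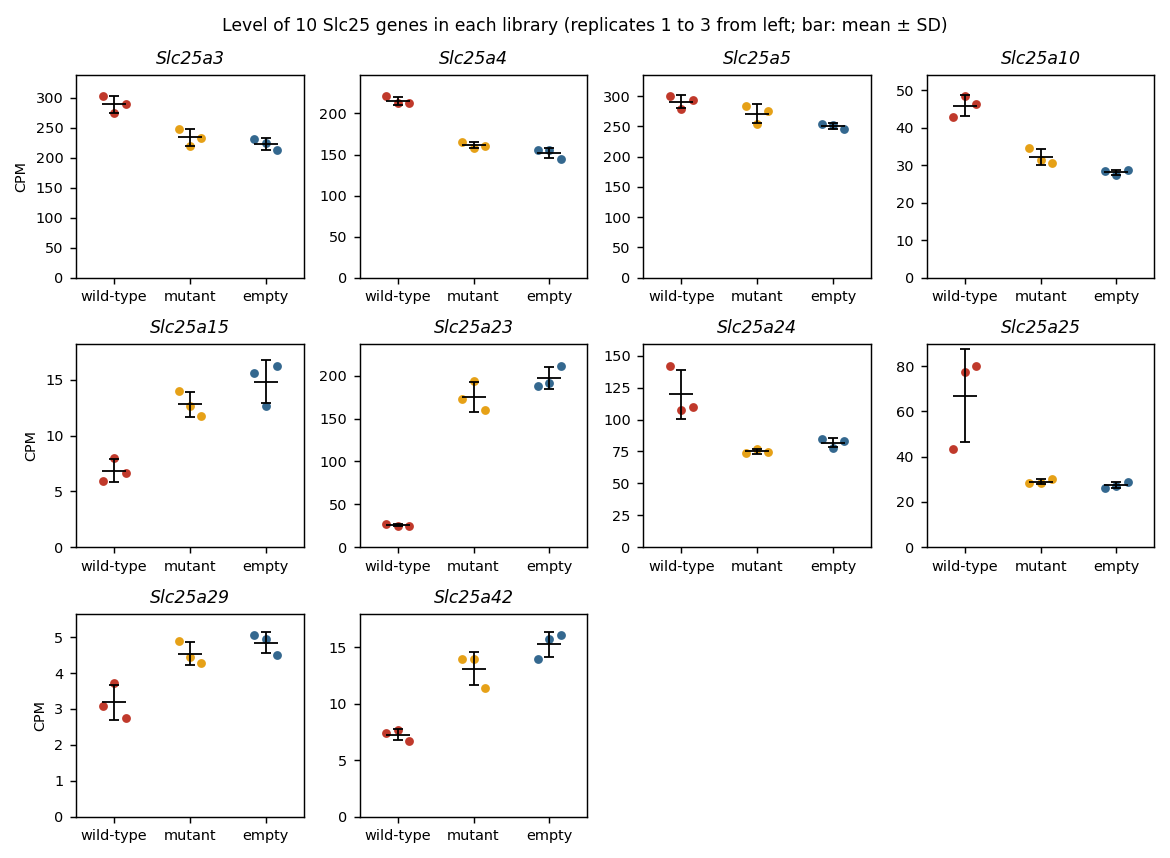
CPM of 10 Slc25 genes in each library, with points for replicates 1 to 3 and bars for the mean and SD of 3 libraries. Slc25a23 lay at 25.0 to 27.3 CPM in wild-type libraries and at 160 CPM or more elsewhere, while Slc25a25 was at 43.4 to 80.1 CPM in wild-type libraries and at 30.3 CPM or less elsewhere.

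Of 4 tested carriers of organic acids 2 rose and 1 fell with wild-type Snai1, where 25.2% of all genes rose and 24.3% fell. Slc25a10 (gene 27376, chromosome 11, 120491837 to 120501161), which exchanges malate or succinate for phosphate, had 42.9, 48.4 and 46.3 CPM with wild-type Snai1, 34.7, 31.5 and 30.6 CPM with the mutant and 28.4, 27.4 and 28.6 CPM with empty vector. The 3 groups did not overlap. It rose by 0.70 over empty vector (adjusted p 3.19e-05, SE 0.07) and by 0.51 over mutant (adjusted p 2.97e-04, SE 0.07), and mutant over empty vector was 0.20 (adjusted p 0.980, SE 0.08). An antisense gene, Gm11788, shares up to 228 bases with it.

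The oxoglutarate carrier gene Slc25a11 averaged 116 ± 3.80 CPM in wild-type libraries, 106 ± 5.24 CPM with the mutant and 93.8 ± 3.55 CPM with empty vector (SD, n = 3). It rose by 0.31 over empty vector (adjusted p 0.00130, SE 0.06), and the difference from mutant was 0.14 (adjusted p 0.0666, SE 0.06). Rnf167, which overlaps it on the opposite strand, fell by 0.43 on the log2 scale (SE 0.07). The citrate carrier gene Slc25a1, which supplies the cytosol with carbon for lipid synthesis, averaged 145 ± 15.7, 159 ± 3.14 and 144 ± 5.72 CPM for the groups in that order, with 0.01 (adjusted p 0.896, SE 0.08) for wild type over empty vector. Slc25a35, a less studied relative, is low in all groups and is given although its mean is under 1 CPM. It had 3, 9 and 5 raw counts in wild-type libraries, 11, 13 and 21 in mutant libraries and 29, 15 and 25 with empty vector. On the log2 scale it fell by 2.06 over empty vector (adjusted p 0.00372, SE 0.46), with wild-type replicate 1 at the floor of 3 counts. Against mutant Snai1 it fell by 1.42 (adjusted p 0.0343), a call that did not hold without wild-type replicate 1 (0.0647) or 3 (0.0827), without mutant replicate 2 (0.0554) or 3 (0.134), or with the replicate number as a block (0.0510). Its exons overlap those of Rangrf on the opposite strand by up to 545 bases.

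Among the carriers of amino acids and acylcarnitines 2 of 8 tested members rose and 5 fell with wild-type Snai1, beside 25.2% and 24.3% of all genes. A group of this size is described by its count only. Slc25a15 (gene 18408, chromosome 8, 22375550 to 22398621), the ornithine carrier of the urea cycle, had 5.97, 7.97 and 6.62 CPM in wild-type libraries, 14.0, 12.7 and 11.8 CPM with the mutant and 15.6, 12.6 and 16.3 CPM with empty vector. Wild-type libraries were below all others, and mutant and control libraries overlapped. The log2 fold change was -1.11 (adjusted p 1.14e-04, SE 0.14) over empty vector, -0.90 (adjusted p 4.94e-04, SE 0.14) over mutant and -0.21 (adjusted p 0.998, SE 0.14) for mutant over empty vector.

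Slc25a29 (gene 214663, chromosome 12, 108825878 to 108835876), a carrier of basic amino acids, was low, at 3.09, 3.72 and 2.76 CPM with wild-type Snai1, 4.89, 4.44 and 4.29 CPM with the mutant and 5.05, 4.96 and 4.51 CPM with empty vector. The wild-type libraries were again the lowest. It fell by 0.60 over empty vector (adjusted p 0.00815, SE 0.15) and by 0.51 over mutant (adjusted p 0.0195, SE 0.15). Against the mutant the call did not hold when wild-type replicate 3 (0.0694) or mutant replicate 1 (0.0736) was left out.

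The other called members of this group changed less. Slc25a44, a carrier of branched-chain amino acids, rose by 0.37 over empty vector (adjusted p 0.0119, SE 0.10), and Slc25a12, a part of the malate-aspartate shuttle, by 0.33 (adjusted p 0.0210, SE 0.10). The glutamate carrier gene Slc25a22 fell by 0.35 (adjusted p 0.0199, SE 0.11), Slc25a45 by 0.34 (adjusted p 0.00162, SE 0.06) and the carnitine/acylcarnitine carrier gene Slc25a20 by 0.24 (adjusted p 0.0340, SE 0.08). Slc25a20 averaged 30.9 ± 2.28 CPM in wild-type libraries, 42.7 ± 3.05 CPM with the mutant and 36.6 ± 2.31 CPM with empty vector (SD, n = 3), with no overlap among the groups. Its difference between wild type and mutant was -0.47 (adjusted p 0.00111, SE 0.08), larger than that from empty vector. Slc25a47, known from liver, was at 1.89 ± 0.0836 CPM in wild-type libraries and 1.64 ± 0.340 CPM with empty vector, with an adjusted p of 0.538.

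Of these, Slc25a44 lost its call against empty vector without empty vector replicate 1 (adjusted p 0.0563). Slc25a12 lost it without empty vector replicate 1 (0.0889) or replicate 2 (0.0681). Slc25a22 lost it without wild-type replicate 3 (0.0748) or empty vector replicate 3 (0.0896), and its call against the mutant (adjusted p 0.0237) was lost without wild-type replicate 3 (0.0808) or mutant replicate 1 (0.0701) or 2 (0.0675). Slc25a20 lost it without wild-type replicate 2 (0.122) or 3 (0.0643), and without empty vector replicate 1 (0.108) or 2 (0.0893). With DESeq2 its adjusted p was 0.052. With only 2 groups in the fit Slc25a12 (0.0505), Slc25a20 (0.0576) and Slc25a22 (0.0537) lost their calls against empty vector as well.

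Of 11 tested carriers of vitamins, cofactors, pyrimidine nucleotides and glutathione, 1 rose and 2 fell, again beside 25.2% and 24.3% of all genes. Slc25a42 (gene 73095, chromosome 8, 70184340 to 70212281), which brings coenzyme A into the matrix, had 7.37, 7.68 and 6.72 CPM with wild-type Snai1, 14.0, 14.0 and 11.4 CPM with the mutant and 14.0, 15.7 and 16.0 CPM with empty vector. It fell by 1.07 over empty vector (adjusted p 3.76e-05, SE 0.12) and by 0.85 over mutant (adjusted p 1.91e-04, SE 0.12). The mutant libraries lay just under the controls, by a log2 fold change of -0.22 (adjusted p 0.980, SE 0.11).

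The glutathione carrier gene Slc25a39 rose by 0.14 over empty vector (adjusted p 0.0442, SE 0.05), a call that did not hold when wild-type replicate 3 (0.0961) or any empty vector replicate (0.0620 to 0.146) was left out. With the replicate number as a block its adjusted p was 0.0738. Slc25a33, a pyrimidine nucleotide carrier gene, was lower than in mutant libraries by a log2 fold change of -0.34 (adjusted p 0.0178, SE 0.10), which did not hold without mutant replicate 1 (0.0669) or 3 (0.0741). Against empty vector its adjusted p was 0.0703. The carrier genes for S-adenosylmethionine (Slc25a26) and NAD (Slc25a51) had log2 fold changes of -0.26 and -0.22 over empty vector, with adjusted p of 0.0570 and 0.0621. Slc25a16, Slc25a17, Slc25a32, Slc25a36 and Slc25a40 lay between -0.13 and 0.19, with adjusted p of 0.199 or more.

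Wild-type replicate 1 stood apart for several of these genes. Without it, Slc25a51, which was also called with no filter on low counts (0.0483), was called against empty vector (adjusted p 2.08e-04), and so were the pyrimidine nucleotide carrier gene Slc25a36 (0.00122), the folate carrier gene Slc25a32 (0.00810) and Slc25a30 (0.00272), a relative of the uncoupling proteins. The same 4 genes were then also called against the mutant, with adjusted p of 0.00159 to 0.00461.

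Of 3 tested carriers of iron and heme 0 rose and 2 fell with wild-type Snai1 against empty vector, beside 25.2% and 24.3% of all genes. Those that fell were the mitoferrin genes, which bring iron into the matrix for heme and iron-sulfur clusters. Slc25a37, the form of developing red cells, averaged 65.7 ± 7.03 CPM with wild-type Snai1, 82.4 ± 4.62 CPM with the mutant and 89.7 ± 6.27 CPM with empty vector (SD, n = 3). It fell by 0.45 over empty vector (adjusted p 0.00169, SE 0.09) and by 0.33 over mutant (adjusted p 0.0107, SE 0.09). Its mutant libraries lay just under the controls, by a log2 fold change of -0.12 (adjusted p 0.998, SE 0.09). An antisense gene and an unclassified transcript overlap its exons. Slc25a28, the widely expressed form, averaged 31.0 ± 5.13, 36.1 ± 1.88 and 39.0 ± 3.77 CPM in the same order and fell by 0.33 over empty vector (adjusted p 0.0381, SE 0.12). That call did not hold when wild-type replicate 3 (0.0758) or any empty vector replicate (0.0502 to 0.132) was left out. Against the mutant Slc25a28 was not called, at -0.22 (adjusted p 0.151, SE 0.12). Slc25a38, which supplies glycine to heme synthesis, had -0.18 (adjusted p 0.194, SE 0.11). The erythroid marker sum was lower in the same wild-type libraries, and all 4 tested markers of that list fell. Its part in the fall of the mitoferrins was not tested.

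Slc25a14 and Slc25a30, relatives of the uncoupling proteins, had log2 fold changes of -0.09 (SE 0.16) and -0.23 (SE 0.11) for wild type over empty vector, with adjusted p of 0.676 and 0.102. Slc25a46, an outer membrane protein tied to mitochondrial shape, had 0.08 (adjusted p 0.452, SE 0.08), and Slc25a53 had -0.02 (adjusted p 0.893, SE 0.13). None of these 4 was called in any comparison over all 9 libraries.

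Genes that work beside the carriers were counted in 9 lists for wild-type Snai1 against empty vector, to be read beside the 25.2% of all genes that rose and the 24.3% that fell. Of 5 carrier-type genes under other symbols 3 were tested, and Mtch1 rose by 0.28 (log2; adjusted p 0.00229, SE 0.06) and 0 fell. Of 17 other inner membrane transporters 4 rose and 4 fell. The calcium uniporter gene Mcu rose to 54.1 ± 2.33 CPM, against 23.1 ± 2.06 CPM with the mutant and 23.9 ± 2.37 CPM with empty vector (SD, n = 3), a log2 fold change of 1.18 over empty vector (SE 0.09). The sideroflexin gene Sfxn4 fell by 1.03 (SE 0.15). The uniporter subunit gene Smdt1 rose by 0.58 (SE 0.09), and was named beside Mcu after its values were seen.

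Outer membrane channels had 2 of 3 members higher and 0 lower. Vdac2 rose by 0.38 (adjusted p 2.32e-04, SE 0.05) and Vdac1 by 0.15 (adjusted p 0.0487, SE 0.06), the latter just under the threshold. Of 15 genes of the import route for carriers 4 rose, near the 25.2% of all genes that did, and 0 fell. The named ones are Tomm6 at 0.35 (SE 0.07) and Tomm22 at 0.26 (SE 0.06). Of 12 enzymes of the malate-aspartate, citrate and glycerol-phosphate shuttles, counted as 1 list, 5 rose and 3 fell. The largest change was that of the glycerol-phosphate dehydrogenase gene Gpd1 at -2.56 (SE 0.23), while the malic enzyme gene Me2 had -0.58 (SE 0.07). Gpd1, of the glycerol-phosphate shuttle, was low, at 0.480 ± 0.0279 CPM with wild-type Snai1 and 2.85 ± 0.413 CPM with empty vector (SD, n = 3). Of 9 genes of acylcarnitine handling and fatty acid oxidation 2 rose and 3 fell. Cpt1a, which makes the acylcarnitine that Slc25a20 carries, fell by 0.91 (SE 0.08), and the dehydrogenase gene Acadm fell by 0.59 (SE 0.05).

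In heme and iron-sulfur synthesis 2 of 14 rose, Alas1 by 0.65 (SE 0.07) and Cpox by 0.31 (SE 0.08), and 2 fell. In mitochondrial one-carbon and glycine metabolism 2 of 7 rose and 1 fell, with Amt at -1.20 (SE 0.20) and Gcsh at 0.44 (SE 0.07). Among 10 factors of mitochondrial DNA upkeep and biogenesis the polymerase gene Polg rose by 0.89 (SE 0.10), the helicase gene Twnk fell by 0.32 (SE 0.07) and the nucleoside kinase gene Dguok by 0.55 (SE 0.12). The list medians ran from -0.04 to 0.20, beside 0.00 over all genes. With mutant Snai1 against empty vector 0 members of any of these 9 lists were called by edgeR.

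The direct comparison of wild-type with mutant Snai1 was made for the same lists, where 24.5% of all genes were higher and 23.4% lower with the wild type. Of the 17 other inner membrane transporters 3 were higher and 2 lower with the wild type, of the 15 import genes 3 and 0, of the 12 shuttle enzymes 5 and 3, and of the 9 acylcarnitine and fatty acid genes 2 and 3. Heme and iron-sulfur synthesis had 2 higher and 2 lower, and one-carbon and glycine metabolism 3 and 2. The carrier-type genes under other symbols and the outer membrane channels each had 1 of 3 higher and 0 lower, and mitochondrial DNA upkeep 1 of 10 higher and 2 lower. By role, beside the same shares of all genes, the carriers of adenine nucleotides and phosphate had 4 of 6 higher and 1 lower than with the mutant, those of iron and heme 0 of 3 and 1, those of organic acids 1 of 4 and 1, those of amino acids and acylcarnitines 1 of 8 and 5, and those of cofactors, nucleotides and glutathione 0 of 11 and 3. The relatives of the uncoupling proteins and the group of Slc25a46 and Slc25a53 had 0 of 2 each in either direction.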

How the data were processed

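The authors deposited a table of whole-number counts, 1 row per gene, made with featureCounts on mm10, per the submitters' processing notes, which also name without a role edgeR 3.15.0 and limma 3.29.12. Libraries were made with a stranded mRNA kit, per the labels. The aligner, the annotation, the strand setting and the featureCounts version are not given in the sources used here.

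Identifiers were matched to RefSeq genes of GRCm38.p6, the assembly behind mm10, which named 25275 of 27179 rows. GENCODE M21 named 18 more and 1886 kept no symbol. Low-count genes were dropped by filterByExpr (edgeR 4.0.16 in R 4.3.3), totals were scaled by TMM, and a robust quasi-likelihood fit took all 9 libraries, with 6 residual degrees of freedom. Benjamini-Hochberg adjustment covered all 12484 tested genes. A gene was called, and is said to have risen or fallen, at an adjusted p under 0.05. SE is the fold change divided by the root of the F statistic. CPM and RPKM use the TMM-scaled library totals. Exon overlaps come from GENCODE M21. Promoter windows on chromosome 18 were not used here. The fit was also run on simulated data, of which no result is given here.

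Values by library are given for members called in at least 1 comparison with a change of at least 1.5-fold and a mean of at least 1 CPM, and for the 3 with the highest RPKM in empty vector. For each neighbouring list, the 2 called genes with the smallest adjusted p are named. Members, lists and rules were chosen with earlier results of these data known. The promoter motif and the class shares were chosen after the values were seen. Alternatives were RLE scaling, no count filter, DESeq2 1.42.0, fits of 2 groups only, the replicate number as a block, and leaving out each library. The labels do not say whether replicates are separate cultures, so p-values measure only how these libraries vary, which may be technical variation. Floors cover counting error only. Values of 1 member that meets this rule and of 1 listed gene are not reported here.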

Additional observations from a re-analysis of the deposited data

How the results depend on the processing

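Over the 11 alternative settings, 15 of 21 member calls for wild-type Snai1 against empty vector and 13 of 17 against mutant Snai1 were kept under every setting, and 0 called values changed sign. The calls of Slc25a12, Slc25a20, Slc25a22, Slc25a28, Slc25a39 and Slc25a44 against empty vector, and of Slc25a22, Slc25a29, Slc25a33 and Slc25a35 against the mutant, were lost under at least 1 setting. The cause was not tested. Some members not called against the mutant in the main fit were called with 1 library left out. Besides those given above for wild-type replicate 1, these were Slc25a11 without mutant replicate 1 (adjusted p 0.0475) and Slc25a26 without mutant replicate 3 (0.0494). Slc25a28 was called without wild-type replicate 2 (0.0281). Fits of 2 groups only lost the calls of Slc25a12, Slc25a20, Slc25a22, Slc25a28 (adjusted p 0.0814) and Slc25a39 (0.0799) against empty vector. DESeq2 lost that of Slc25a20, and the fit with no count filter that of Slc25a39 (0.117). Leaving out 1 library, 7 to 11 members were higher and 8 to 14 lower with wild-type Snai1 than with empty vector, and 6 to 7 higher and 8 to 13 lower than with the mutant. For mutant Snai1 against empty vector the count over all genes was 1 higher and 0 lower, and it became 13 and 17 with only those 2 groups in the fit, and 6 and 4 with DESeq2, while 0 Slc25 members were called under any setting. With the replicate block, the Slc25a39 call against empty vector (adjusted p 0.0738) and the Slc25a35 call against the mutant (adjusted p 0.0510) were lost, and no other member call of the main fit was; the Slc25a23 value was -2.93 with the replicate block. Labels do not say what a number stands for. After removal of group means, 2 of 9 same-numbered pairs correlated above 0.1 (range -0.0873 to 0.210), beside 1 of 18 other-numbered pairs (range -0.165 to 0.117). Of the 9 libraries 4 were most like one of their own number. Genes under 3 counts per library, 0.144 to 0.161 CPM, cannot be resolved at this depth.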
